A study of Homo sapiens with 15 samples.

Results

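The 14q32 cluster from MIR379 to MIR656 was followed in miRNA-Seq libraries of U87-MG, an established human glioblastoma (GBM) cell line. Its members were the 40 mature miRNAs named in a list of the products of this cluster, all of which were rows of the count tables, out of 1707 miRNAs in all. There were 5 groups of 3 libraries, each from cells kept for 24 h in the stated oxygen. Control cells (WT) were kept under normoxia (21% O2) or hypoxia (1% O2). Cells with a knockout of HIF1α (HIF1α-KO), of HIF2α (HIF2α-KO) or of both (HIF1α/HIF2α-KO, also called the double knockout) were kept under hypoxia only. Per the study's methods the knockouts were made by transduction with a lentiviral CRISPR vector, and the isolation of single clones is not described. No source says that the 3 replicates of a group came from separate cultures, so the p-values measure the spread between these samples, which may be technical. The assay reads miRNAs and not the mRNAs of HIF1A and EPAS1 (the gene of HIF2α), so the knockouts were not checked here.

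The cluster lies in the imprinted DLK1-DIO3 region of chromosome 14, where the miRNAs and the long noncoding RNAs around them are transcribed from the maternal chromosome. Its hairpins are cut out of long transcripts by Drosha and Dicer, and each hairpin can give a mature miRNA from its 5′ arm (5p), its 3′ arm (3p) or both. The cluster is known for its expression in brain and placenta, and in neurons its members miR-134, miR-381 and miR-329 take part in activity-dependent growth of dendrites. HIF1α and HIF2α are the oxygen-sensitive subunits of the hypoxia-inducible transcription factors.

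The sequences of the members that passed the test in a comparison are shown first, because a mature miRNA finds its targets mainly through its seed, bases 2 to 8 from the 5′ end, which is printed in capitals. All 40 members had a mature sequence in RefSeq (GRCh38.p14). The 11 members whose level was lower in HIF1α/HIF2α-KO than in hypoxic control cells are given in the order of their hairpins on the chromosome, 5′ to 3′.
hsa-miR-379-5p: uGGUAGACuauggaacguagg
hsa-miR-379-3p: uAUGUAACaugguccacuaacu
hsa-miR-411-5p: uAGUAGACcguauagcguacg
hsa-miR-411-3p: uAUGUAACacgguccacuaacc
hsa-miR-323a-3p: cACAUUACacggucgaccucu
hsa-miR-758-3p: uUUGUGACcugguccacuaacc
hsa-miR-654-3p: uAUGUCUGcugaccaucaccuu
hsa-miR-381-3p: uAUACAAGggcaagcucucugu
hsa-miR-382-3p: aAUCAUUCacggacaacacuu
hsa-miR-134-5p: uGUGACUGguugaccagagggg
hsa-miR-409-3p: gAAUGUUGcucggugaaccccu
Among these, hsa-miR-379-3p and hsa-miR-411-3p shared 1 seed, and the other 9 had a seed each. Outside the cluster, hsa-miR-134-5p shared its seed with hsa-miR-3118. The seed of hsa-miR-381-3p also occurs in hsa-miR-300, another product of the same cluster. Among the remaining members, the seed was shared by hsa-miR-539-3p and hsa-miR-485-3p, by hsa-miR-487a-3p and hsa-miR-154-3p, and by hsa-miR-376a-3p and hsa-miR-376b-3p.

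The 31 hairpins of the members lie on the plus strand of chromosome 14 within 44.7 kb, from MIR379 (chr14:101022066-101022132) to MIR656 (chr14:101066724-101066801) in the GRCh38 annotation of GENCODE v29. The hairpins from MIR379 to MIR495 lie in introns of MEG8, a long noncoding RNA. MIR381, MIR487B, MIR539, MIR889 and MIR655 lie in introns of MIR381HG. MIR409, MIR369 and MIR656 lie in introns of MEG9, and MIR410 overlaps a MEG9 exon. The hairpins from MIR376C to MIR376A1 and from MIR487A to MIR377 lie in no annotated host gene on their strand. The mature hsa-miR-381-3p lies at chr14:101045968-101045989, hsa-miR-654-3p at chr14:101040269-101040290, hsa-miR-379-5p at chr14:101022071-101022091 and hsa-miR-409-3p at chr14:101065346-101065367.

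The start site of MIR381HG, the host of the most abundant member, was searched for the 2 forms of the core motif bound by the HIF proteins, ACGTG and GCGTG, on both strands. The RefSeq window of 250 bases before to 50 bases after this start (chr14:101044907-101045206, plus strand, GRCh38.p14) held GCGTG 2 times and ACGTG 0 times. The matches are in capitals.
MIR381HG start: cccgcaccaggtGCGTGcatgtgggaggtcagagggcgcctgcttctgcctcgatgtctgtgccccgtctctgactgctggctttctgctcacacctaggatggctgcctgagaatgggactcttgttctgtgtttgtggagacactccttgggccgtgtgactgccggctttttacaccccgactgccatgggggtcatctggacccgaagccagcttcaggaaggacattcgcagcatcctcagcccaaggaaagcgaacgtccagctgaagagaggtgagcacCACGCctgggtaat
Windows with GCGTG made up 36.5% of the 35116 windows of this kind, those with ACGTG 21.4%, and those with either 48.4%. The windows of MEG3 held 0 or 1 GCGTG and no ACGTG, and that of MEG9 (chr14:101069661-101069960) held 1 ACGTG and no GCGTG. This RefSeq window of MEG9 lies downstream of MIR656 and of the MEG9 start in GENCODE v29 (chr14:101064151). It therefore does not describe a start upstream of the hairpins inside MEG9. No window of MEG8 is given here. These matches describe the letters of the windows only.

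The libraries held 10360337 to 22496373 counts. The detection floor was set at 3 counts, which is 0.133 to 0.290 CPM (counts scaled to the same library total, the usual CPM unit). This floor, like the intervals below, covers counting error only. miR-21-5p, abundant in glioma cell lines, stood at 165043 to 255236 CPM. Of the neural markers, miR-124-3p was at 0 in 10 of 15 libraries. The others examined were abundant in every library, with miR-9-5p at 1964 to 8497 CPM and miR-128-3p at 866 to 2213 CPM. The endothelial miR-126 (3p and 5p summed) divided the libraries into 9 with 14.5 CPM or more and 6 with 6.95 CPM or less, a split that runs through the 4 hypoxic groups. The deepest libraries were hypoxic control replicate 2 and HIF1α-KO replicate 2.

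The 40 members together were a minor part of these libraries, with 0.00400% to 0.0173% of a library's counts. Their summed level was 66.5, 125 and 107 CPM in the normoxic control libraries. The hypoxic control had 125, 173 and 101 CPM, and HIF1α-KO cells had 119, 153 and 114 CPM. HIF2α-KO cells had 68.8, 64.7 and 76.2 CPM, and HIF1α/HIF2α-KO cells had 39.96, 53.2 and 53.8 CPM. The 3 double-knockout libraries were below the 12 others, and the 3 HIF2α-KO libraries were below the 6 hypoxic control and HIF1α-KO libraries, which overlapped each other. The normoxic control libraries overlapped every group but the double knockout. Fewer molecules per cell and fewer cells that express the cluster cannot be told apart in these bulk samples.

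**Figure D1:**
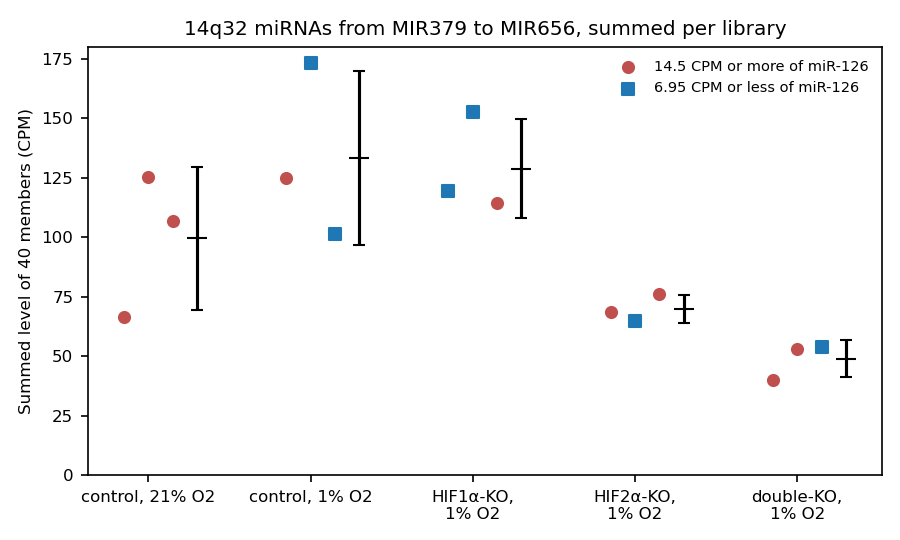
Summed level of the 40 members (y axis, CPM) in each library of the 5 groups (x axis); each point is a library, coloured by its miR-126 level, and the bar beside the points is the mean ± SD (n = 3). The double-knockout libraries lie between 39.96 and 53.8 CPM, below all the others.

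The mean of the sum was 133 ± 36.7 CPM (SD, n = 3) in hypoxic control cells and 49.0 ± 7.80 CPM in HIF1α/HIF2α-KO cells, which is 2.72-fold lower. The mean of HIF2α-KO cells, 69.9 ± 5.86 CPM, was 1.91-fold lower than that of hypoxic control cells, and 1.73-fold lower after adjustment for library composition (TMM). HIF1α-KO cells were at 129 ± 20.8 CPM and normoxic control cells at 99.6 ± 30.1 CPM. The deepest libraries had the highest sum of their groups, and without them the means of hypoxic control and HIF1α-KO cells were 113 and 117 CPM. Within the 6 libraries with less miR-126, the sums were 173 and 101 CPM in hypoxic control, 119 and 153 CPM in HIF1α-KO, 64.7 CPM in HIF2α-KO and 53.8 CPM in HIF1α/HIF2α-KO cells. Within the 9 with more miR-126, they were 125, 114, 68.8 and 76.2, and 39.96 and 53.2 CPM in the same order of groups. The 3 normoxic control libraries all belong to the latter set, at 66.5 to 125 CPM. In each set some groups had 1 library only, so these values have no replicate check, and the part of the miR-126 difference in the sums was not tested.

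Few members carried most of the sum. hsa-miR-381-3p had 8224 of the members' counts over all libraries, and with hsa-miR-654-3p it made up 52.2% of them. The 5 most abundant members, to which hsa-miR-379-5p, hsa-miR-409-3p and hsa-miR-411-5p belong, made up 76.6%. At the other end, hsa-miR-377-3p had 5 counts and hsa-miR-154-3p 7 counts over all 15 libraries. A library held a count of 29 to 40 of the members, and 19 members were counted in every library. The map of counts by member and library shows this range.

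The filter on low counts asked for at least 0.801 CPM in 3 libraries, and 20 of the 40 members passed it, against 562 of all 1707 miRNAs. Of these 20 members, 7 reached the cutoff in every library, and 9 reached it in no double-knockout library. The latter could pass only through groups in which they were higher, so counts over the 20 tested members describe them and do not stand for the 40. The test was the quasi-likelihood test of edgeR on all 15 libraries, with Benjamini-Hochberg adjustment over the 562 miRNAs tested and a threshold of 0.05.

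The comparison of HIF1α/HIF2α-KO with hypoxic control cells asks what the loss of both factors does under hypoxia. 11 of the 20 tested members fell and 0 rose, where 4.63% of all 562 miRNAs tested were called lower. An unadjusted p under 0.05 with a lower level was reached by 17 of the 20 members and by 13.3% of all miRNAs tested. The 3 double-knockout libraries lay below the 3 hypoxic control libraries in CPM for 15 of the 20 members and for 13.9% of all miRNAs tested. The median log2 fold change was -1.67 over the 20 tested members and -0.02 over all 562.

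hsa-miR-381-3p, the most abundant member, measured 46.9, 69.9 and 40.3 CPM in the hypoxic control libraries and 19.7, 21.6 and 22.6 CPM in the HIF1α/HIF2α-KO libraries. It stood at 26.7, 47.2 and 47.0 CPM in normoxic control, 47.1, 61.1 and 40.1 CPM in HIF1α-KO and 24.1, 19.2 and 24.2 CPM in HIF2α-KO cells. The 6 libraries without HIF2α were thus all below the 9 others, and the HIF2α-KO and double-knockout libraries overlapped. Its log2 fold change between HIF1α/HIF2α-KO and hypoxic control cells was -1.35 ± 0.26 (SE), with an adjusted p of 0.00705 in edgeR.

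hsa-miR-654-3p, the second most abundant member, measured 15.7, 22.2 and 12.8 CPM in hypoxic control and 3.12, 6.58 and 5.23 CPM in HIF1α/HIF2α-KO cells. HIF2α-KO cells had 10.3, 7.54 and 9.12 CPM, which lay between the 2 other groups without overlap. The levels were 8.49, 20.6 and 13.5 CPM in normoxic control and 14.3, 21.3 and 17.8 CPM in HIF1α-KO cells. The edgeR log2 fold change of the double knockout against the hypoxic control was -1.83 ± 0.34 (adjusted p = 0.00672). The other arm of this hairpin, hsa-miR-654-5p, had 1.84, 2.53 and 2.09 CPM in normoxic control, 2.82, 1.82 and 0.717 CPM in hypoxic control and 1.21, 1.65 and 1.54 CPM in HIF1α-KO cells. It had 0.446, 1.13 and 1.62 CPM in HIF2α-KO and 0.456, 0.411 and 0.943 CPM in HIF1α/HIF2α-KO cells, so that double-knockout and hypoxic control libraries overlapped, and it did not pass (-1.60 ± 0.52, adjusted p = 0.0672 in edgeR).

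Both arms of MIR379, the first hairpin of the cluster, passed. hsa-miR-379-5p measured 6.01, 7.99 and 8.67 CPM in normoxic control and 12.7, 19.4 and 11.8 CPM in hypoxic control cells. It had 10.6, 17.0 and 11.0 CPM in HIF1α-KO, 5.72, 8.15 and 6.99 CPM in HIF2α-KO and 4.10, 3.70 and 6.17 CPM in HIF1α/HIF2α-KO cells. The hypoxic control libraries were above the normoxic control, HIF2α-KO and double-knockout libraries, and the latter overlapped the HIF2α-KO libraries. The difference between the double knockout and the hypoxic control was -1.71 ± 0.30 on the log2 scale (adjusted p = 0.00622 in edgeR).

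hsa-miR-379-3p, the minor arm, had 0.240, 0.461 and 0.246 CPM in normoxic control, 1.13, 0.978 and 1.15 CPM in hypoxic control and 1.04, 0.775 and 0.965 CPM in HIF1α-KO cells. It had 0.520, 0.607 and 0.682 CPM in HIF2α-KO and 0.195, 0.329 and 0.171 CPM in HIF1α/HIF2α-KO cells, the latter from 9 counts over 3 libraries, and those libraries were near the floor. The double-knockout libraries were below the HIF2α-KO libraries, which were below the hypoxic control libraries. Its log2 fold change of -2.24 ± 0.36 was the largest fall among the 11 members (adjusted p = 0.00605 in edgeR). No normoxic control, HIF2α-KO or double-knockout library reached the filter's cutoff for this arm.

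Both arms of MIR411, the neighbour of MIR379, also passed. hsa-miR-411-5p measured 3.37, 8.06 and 6.27 CPM in normoxic control, 8.10, 11.3 and 6.45 CPM in hypoxic control and 8.56, 9.64 and 8.11 CPM in HIF1α-KO cells. It measured 3.94, 7.63 and 5.20 CPM in HIF2α-KO cells and 2.21, 2.88 and 4.72 CPM in HIF1α/HIF2α-KO cells. The double-knockout libraries were below the hypoxic control libraries and overlapped the HIF2α-KO libraries (log2 fold change against the hypoxic control -1.47 ± 0.37, adjusted p = 0.0308 in edgeR). It passed in 2 of the 6 fits that left out 1 library, and its highest adjusted p among them was 0.122 in edgeR.

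hsa-miR-411-3p, which carries the seed of hsa-miR-379-3p, had 1.12, 1.23 and 0.984 CPM in normoxic control, 1.51, 1.91 and 2.58 CPM in hypoxic control and 1.73, 1.501 and 1.16 CPM in HIF1α-KO cells. HIF2α-KO cells had 1.19, 0.694 and 0.682 CPM, and HIF1α/HIF2α-KO cells had 0.456, 0.741 and 0.429 CPM. The double-knockout libraries were again below the hypoxic control libraries, and 1 of them lay within the HIF2α-KO range (log2 fold change against the hypoxic control -1.95 ± 0.33, adjusted p = 0.00605 in edgeR).

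**Figure D2:**
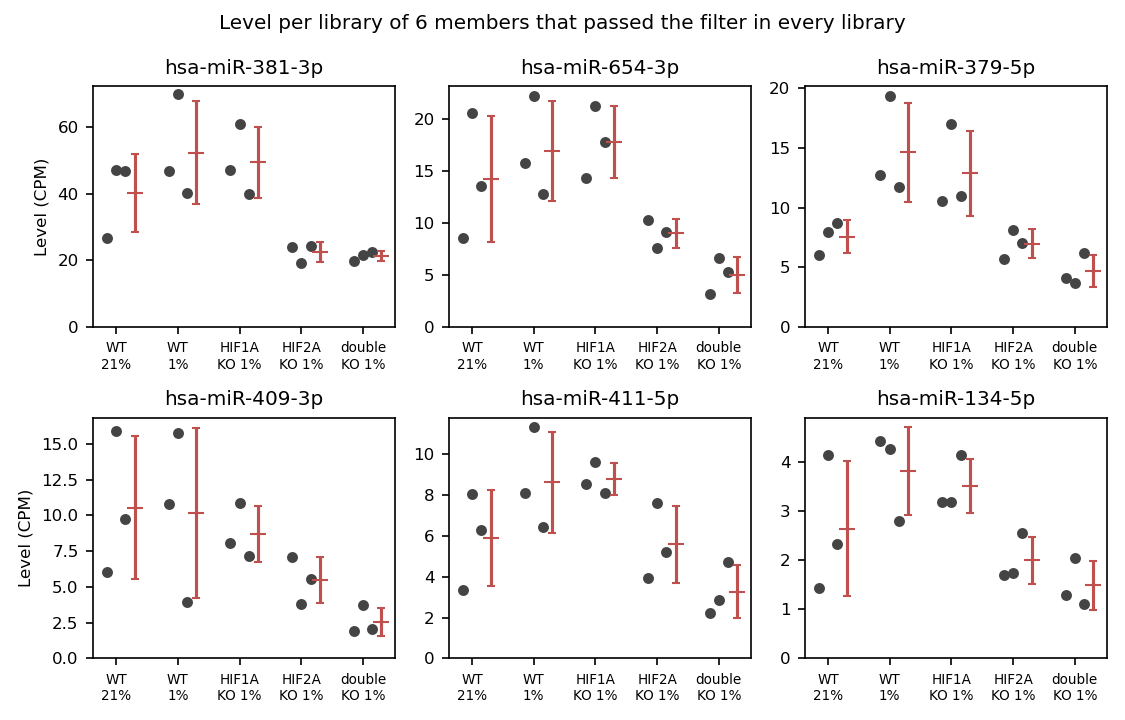
Level (y axis, CPM) of hsa-miR-381-3p, hsa-miR-654-3p, hsa-miR-379-5p, hsa-miR-409-3p, hsa-miR-411-5p and hsa-miR-134-5p in each library (points) of the 5 groups (x axis, with the percentage of O2), with the mean ± SD of 3 libraries in red. For each of these 6 members the double-knockout points lie below the hypoxic control points, while the HIF1α-KO points overlap the hypoxic control points.

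hsa-miR-409-3p, from the downstream end of the cluster, measured 6.01, 15.9 and 9.72 CPM in normoxic control and 10.8, 15.8 and 3.94 CPM in hypoxic control cells. The levels were 8.05, 10.9 and 7.14 CPM in HIF1α-KO, 7.06, 3.81 and 5.54 CPM in HIF2α-KO and 1.89, 3.70 and 2.06 CPM in HIF1α/HIF2α-KO cells. The hypoxic control libraries were spread widely, and the lowest of them lay just above the highest double-knockout library (log2 fold change -2.06 ± 0.48, adjusted p = 0.0214 in edgeR). This call also remained in only 2 of 6 fits without 1 library, with an adjusted p of up to 0.101 in edgeR. Its other arm, hsa-miR-409-5p, had 0.401, 1.23 and 1.23 CPM in normoxic control, 0.377, 1.38 and 0.717 CPM in hypoxic control and 0.779, 1.02 and 0.579 CPM in HIF1α-KO cells. It had 0.966, 0.607 and 0.938 CPM in HIF2α-KO and 0.260, 0.329 and 0.171 CPM in HIF1α/HIF2α-KO cells, where it was below every other library, but it did not pass against the hypoxic control (-1.81 ± 0.57, adjusted p = 0.0655 in edgeR).

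hsa-miR-134-5p, a brain-enriched miRNA that limits dendritic spine size in neurons, measured 1.44, 4.15 and 2.34 CPM in normoxic control, 4.43, 4.27 and 2.79 CPM in hypoxic control and 3.20, 3.20 and 4.15 CPM in HIF1α-KO cells. HIF2α-KO cells had 1.71, 1.73 and 2.56 CPM and HIF1α/HIF2α-KO cells 1.30, 2.06 and 1.11 CPM. These knockout groups overlapped each other and were below the hypoxic control libraries, and the double knockout differed from the hypoxic control by -1.42 ± 0.35 on the log2 scale (adjusted p = 0.0306 in edgeR). Without 1 library it passed in 2 of 6 fits, with an adjusted p of up to 0.111 in edgeR.

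hsa-miR-323a-3p had 0.801, 1.61 and 1.11 CPM in normoxic control, 2.17, 1.91 and 1.58 CPM in hypoxic control and 1.90, 1.79 and 1.35 CPM in HIF1α-KO cells. It had 0.817, 0.954 and 0.853 CPM in HIF2α-KO and 0.325, 0.905 and 0.171 CPM in HIF1α/HIF2α-KO cells, and the libraries of these knockouts were below the hypoxic control libraries. The edgeR log2 fold change of the double knockout was -2.06 ± 0.42 (adjusted p = 0.00904), and it passed in 5 of 6 fits without 1 library.

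hsa-miR-758-3p, whose hairpin follows MIR323A, was the 1 member among the 11 whose HIF1α-KO libraries all lay above the hypoxic control libraries, with 2.77, 2.28 and 2.41 CPM against 1.13, 1.20 and 1.79 CPM in hypoxic control cells. It had 0.321, 0.538 and 0.861 CPM in normoxic control, 0.743, 1.30 and 1.19 CPM in HIF2α-KO and 0.586, 0.411 and 0.600 CPM in HIF1α/HIF2α-KO cells. The double-knockout libraries were below the libraries of the 3 other hypoxic groups and overlapped the normoxic control. The log2 fold change against the hypoxic control was -1.41 ± 0.37 (adjusted p = 0.0394 in edgeR), and this call was the least stable of the 11. It passed in 6 of 9 other fits that kept all libraries and in 0 of 6 fits that left out 1 library, with adjusted p-values in edgeR of 0.0566 to 0.117 in the latter.

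hsa-miR-382-3p measured 1.60, 2.00 and 1.23 CPM in normoxic control, 1.60, 1.82 and 1.65 CPM in hypoxic control and 1.38, 1.07 and 0.772 CPM in HIF1α-KO cells. HIF2α-KO cells had 0.669, 1.04 and 1.02 CPM and HIF1α/HIF2α-KO cells 0.390, 0.741 and 0.514 CPM. All 9 knockout libraries were below the hypoxic control libraries, and the double knockout differed by -1.69 ± 0.32 on the log2 scale (adjusted p = 0.00672 in edgeR). Its other arm, hsa-miR-382-5p, had 0.962, 3.00 and 1.29 CPM in normoxic control, 1.88, 2.84 and 2.08 CPM in hypoxic control and 1.30, 2.37 and 1.25 CPM in HIF1α-KO cells. With 1.63, 1.65 and 2.13 CPM in HIF2α-KO and 0.260, 1.15 and 0.943 CPM in HIF1α/HIF2α-KO cells, its double-knockout libraries were below those of the 3 other hypoxic groups, but its adjusted p of 0.0555 in edgeR did not pass (-1.65 ± 0.50).

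Another 6 members were tested and not called in this comparison, and their levels are given as mean ± SD of 3 libraries in the order of normoxic control, hypoxic control, HIF1α-KO, then HIF2α-KO, then double-knockout cells. hsa-miR-494-3p, the most abundant of them, stood at 3.81 ± 0.848, 5.29 ± 1.55, 7.42 ± 0.368, 4.36 ± 0.496 and 3.20 ± 1.66 CPM. hsa-miR-495-3p had 0.340 ± 0.128, 0.817 ± 0.299, 0.673 ± 0.152, 0.594 ± 0.303 and 0.218 ± 0.141 CPM. hsa-miR-487b-3p had 0.389 ± 0.129, 0.734 ± 0.402, 0.702 ± 0.190, 0.603 ± 0.539 and 0.315 ± 0.158 CPM. Of these, hsa-miR-494-3p and hsa-miR-487b-3p overlapped between double knockout and hypoxic control, and hsa-miR-495-3p did not (-1.93 ± 0.58, adjusted p = 0.0540 in edgeR). hsa-miR-369-3p had 0.188 ± 0.0961, 0.819 ± 0.523, 0.541 ± 0.320, 0.398 ± 0.617 and 0.420 ± 0.170 CPM, with a difference of -0.98 ± 0.86 between double knockout and hypoxic control on the log2 scale. hsa-miR-329-3p had 0.660 ± 0.308, 1.00 ± 0.640, 1.25 ± 0.268, 0.901 ± 0.547 and 0.224 ± 0.194 CPM. hsa-miR-376a-3p had 0.148 ± 0.162, 0.399 ± 0.125, 0.656 ± 0.450, 0.605 ± 0.365 and 0.416 ± 0.429 CPM, and its difference of -0.06 ± 0.84 was the smallest of the 20.

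The levels of hsa-miR-329-3p and hsa-miR-376a-3p need a caution about counting. Each can come from 2 hairpins of the cluster, and their counts were even numbers in all 15 libraries. Over all miRNAs with more than 30 counts, the counts were even in every library for 15 of 45 miRNAs with 2 hairpins and for 1 of 684 with 1 hairpin. The counts of hsa-miR-376a-3p were exactly 2 times those of hsa-miR-376b-3p in 14 of 15 libraries, 12 of which had counts. Both share the seed.
hsa-miR-376a-3p: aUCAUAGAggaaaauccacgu
hsa-miR-376b-3p: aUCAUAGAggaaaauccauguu
How the authors' counting treated reads that match several hairpins is not given in the sources used here. With the counts of both 2-hairpin members halved, an alternative chosen after seeing the data, neither passed the filter, and 11 members were called against the hypoxic control as before.

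The 7 members that reached the cutoff in every library do not owe their place among the tested to any 1 group. Of them, hsa-miR-381-3p, hsa-miR-654-3p, hsa-miR-379-5p, hsa-miR-409-3p, hsa-miR-411-5p and hsa-miR-134-5p were called lower in HIF1α/HIF2α-KO than in hypoxic control cells. Only the first 3 of these 6 were called in every fit without 1 library, while hsa-miR-409-3p, hsa-miR-411-5p and hsa-miR-134-5p were each called in 2 of 6. The seventh, hsa-miR-494-3p, was not called (-0.82 ± 0.35, adjusted p = 0.168 in edgeR). In a fit of all 1707 miRNAs without the filter, 14 of the 40 members were called lower and 0 higher, where 1.46% of all miRNAs were called lower. Among these 14 was 1 member that the filter removes, hsa-miR-299-3p (log2 fold change -2.23 ± 0.67, adjusted p = 0.0372 in edgeR).

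The number of calls depended on single libraries. Without hypoxic control replicate 1 or replicate 2, 7 members were called against the hypoxic control, and without HIF1α/HIF2α-KO replicate 1, 6. Over the 6 fits without 1 library, 15 to 32 of all miRNAs tested were called, against 33 with all libraries. The direction of the 11 called members was the same in all these fits. Those called in all 6 fits without 1 library were hsa-miR-379-5p, hsa-miR-379-3p, hsa-miR-411-3p, hsa-miR-654-3p, hsa-miR-381-3p and hsa-miR-382-3p. Of the 11 called members, 4 reached the filter's cutoff in no double-knockout library. These were hsa-miR-379-3p, hsa-miR-411-3p, hsa-miR-758-3p and hsa-miR-382-3p, which could be tested only through groups in which they were higher.

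The 20 members that did not pass the filter are described by their counts summed over the 3 libraries of each group, in the order of normoxic control, hypoxic control, HIF1α-KO, then HIF2α-KO, then double-knockout cells. Their sum over a library was 20 to 33 counts in HIF1α/HIF2α-KO cells, 24 to 47 in HIF2α-KO, 53 to 100 in HIF1α-KO, 51 to 131 in hypoxic control and 33 to 68 in normoxic control cells. In CPM, the mean of this sum was 4.81 ± 1.01 in hypoxic control and 1.92 ± 0.217 in HIF1α/HIF2α-KO cells, and no library of the one group reached the other. For the miRNAs outside the cluster that failed the filter, the mean sum in HIF1α/HIF2α-KO cells was 1.08 times that in hypoxic control cells. On the summed counts per total, 19 of these 20 members were lower in HIF1α/HIF2α-KO than in hypoxic control cells, against 44.8% of all miRNAs under the filter.

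In the part of the cluster inside MEG8, hsa-miR-299-3p had 16, 35, 25, 23 and 6 counts. The other arm, hsa-miR-299-5p, had 15, 30, 21, 4 and 7 counts. hsa-miR-380-3p had 10, 8, 7, 3 and 2 counts. These 3 members were thus counted fewer than 10 times in the double knockout. Among the products of the MIR376 hairpins, hsa-miR-376b-3p had 3, 10, 12, 10 and 8 counts. Given the ratio described above, these may be reads that were also counted for hsa-miR-376a-3p, so hsa-miR-376b-3p may not be a separate measurement. hsa-miR-376c-3p had 9, 9, 13, 5 and 3 counts. The MIR376 hairpins are known as targets of A-to-I editing of their transcripts, which was not examined here.

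Inside MIR381HG, hsa-miR-889-3p had 20, 15, 31, 12 and 9 counts. hsa-miR-655-3p had 5, 13, 4, 1 and 1 counts. The MIR539 hairpin gave hardly any reads, with 2, 4, 3, 3 and 0 counts of hsa-miR-539-5p and 2, 3, 5, 3 and 5 counts of hsa-miR-539-3p. The latter was the 1 member under the filter that was not lower in the double knockout than in the hypoxic control.

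Between MIR381HG and MEG9, hsa-miR-323b-3p had 13, 22, 24, 6 and 10 counts and hsa-miR-487a-3p had 2, 3, 4, 1 and 1. hsa-miR-485-3p had 7, 9, 17, 10 and 3 counts. hsa-miR-485-5p had 8, 15, 10, 0 and 7 counts, so that it was not seen in HIF2α-KO cells, where the floor of 3 counts over the group is 0.0817 CPM and the exact 95% Poisson interval of 0 counts reaches 0.1005 CPM. Its 15 counts in hypoxic control cells equalled 0.319 CPM, with an exact 95% Poisson interval of 0.178 to 0.526 CPM. These intervals leave out the spread between replicates, and the edgeR fit without the filter did not call hsa-miR-485-5p between these groups. hsa-miR-154-5p had 8, 11, 2, 5 and 4 counts and hsa-miR-154-3p had 0, 2, 5, 0 and 0. hsa-miR-377-5p had 4, 6, 6, 3 and 2 counts and hsa-miR-377-3p had 2, 2, 0, 1 and 0. None of these arms of MIR154 and MIR377 was called in any comparison of the edgeR fit without the filter, which at such counts does not show that they are equal.

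Inside MEG9, hsa-miR-369-5p had 11, 17, 10, 11 and 5 counts. hsa-miR-410-3p had 4, 7, 4, 3 and 0 counts, and hsa-miR-656-3p, the last member, had 1, 14, 8, 4 and 3. For the 0 counts of hsa-miR-410-3p in HIF1α/HIF2α-KO cells the floor of 3 counts over the group is 0.0766 CPM and the exact 95% Poisson interval reaches 0.0941 CPM, which overlaps that of the 0.149 CPM in hypoxic control cells (0.0598 to 0.306 CPM).

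Called members lay in every annotated stretch of the cluster. Against the hypoxic control, 4.63% of all 562 miRNAs tested were called lower in the double knockout. Only members that passed the filter are counted here, and 9 of them reached its cutoff in no double-knockout library. The calls were 6 of 9 tested members within MEG8 and 1 of 2 within MIR381HG. They were 1 of 3 within MEG9 and 3 of 6 in the stretches without an annotated host. The median log2 fold change was -1.93, -1.33, -1.81 and -1.62 in the same order. The plot of fold changes along the cluster places the called members from its first hairpin to 43.2 kb downstream, at MIR409.

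**Figure D3:**
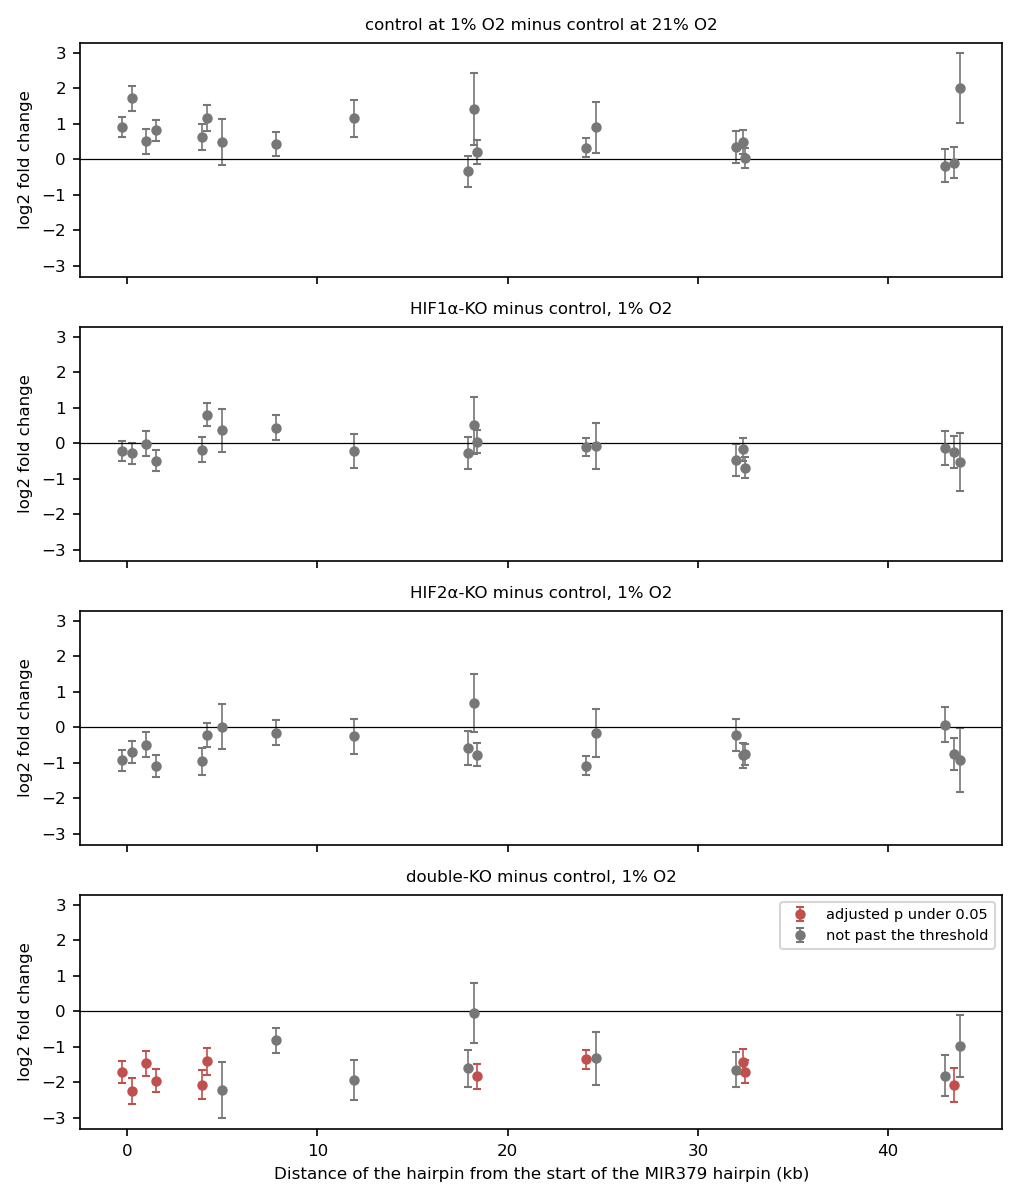
log2 fold change ± SE (y axis) of the 20 tested members against the distance of their hairpin from the start of the MIR379 hairpin (x axis, kb; 5p and 3p arms are set slightly apart), in 4 comparisons; red points had an adjusted p under 0.05 in edgeR. All points of the double knockout lie below 0, and the 3 other comparisons have no red point.

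HIF2α loss was added to HIF1α loss in the comparison of HIF1α/HIF2α-KO with HIF1α-KO cells. 7 of the 20 tested members fell and 0 rose, where 1.42% of all miRNAs tested were called lower. These 7 were hsa-miR-758-3p (-2.21 ± 0.36 on the log2 scale, adjusted p = 0.0157 in edgeR), hsa-miR-379-3p (-1.96 ± 0.37), hsa-miR-323a-3p (-1.88 ± 0.42), hsa-miR-654-3p (-1.87 ± 0.34), hsa-miR-379-5p (-1.497 ± 0.30), hsa-miR-411-3p (-1.46 ± 0.33) and hsa-miR-381-3p (-1.24 ± 0.26), with adjusted p-values in edgeR of 0.0157 to 0.0478. All 8 miRNAs called in this comparison were lower, and the 1 outside the cluster was hsa-miR-3681-5p (log2 fold change -1.44, adjusted p = 0.0324 in edgeR), which is named because its value was seen. Of the 7 members, hsa-miR-379-3p, hsa-miR-411-3p and hsa-miR-758-3p reached the filter's cutoff in no double-knockout library. They belong to the 9 of the 20 tested members that could pass only through groups in which they were higher.

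An unadjusted p under 0.05 with a lower level in HIF1α/HIF2α-KO than in HIF1α-KO cells was reached by 17 of the 20 members and by 8.72% of all miRNAs tested. The libraries did not overlap, with the double knockout lower, for 18 of the 20 members and for 10.1% of all miRNAs tested, and the 2 that overlapped were hsa-miR-376a-3p and hsa-miR-369-3p. Without the filter, 10 of the 40 members were called lower, where 0.82% of all 1707 miRNAs were. Both comparisons of the double knockout use the same 3 libraries, so their calls are not independent of each other. The calls against HIF1α-KO cells rested on single libraries, since 0 members were called without HIF1α-KO replicate 2 or without HIF1α/HIF2α-KO replicate 1. There were 2 without HIF1α/HIF2α-KO replicate 3 and 3 without HIF1α-KO replicate 1. Over the 6 fits without 1 library, 0 to 14 of all miRNAs tested were called. Of the 7, hsa-miR-758-3p passed in 4 of 6 such fits, hsa-miR-379-5p and hsa-miR-654-3p in 3, hsa-miR-379-3p, hsa-miR-323a-3p and hsa-miR-411-3p in 2, and hsa-miR-381-3p in 1. In a fit of the 6 libraries compared alone, with the filter applied anew, 0 of 13 tested members were called. An unadjusted p under 0.05 in edgeR was reached by 12 of them. The share of all miRNAs in that fit is not given, so this count has no background to be set against.

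**Figure D4:**
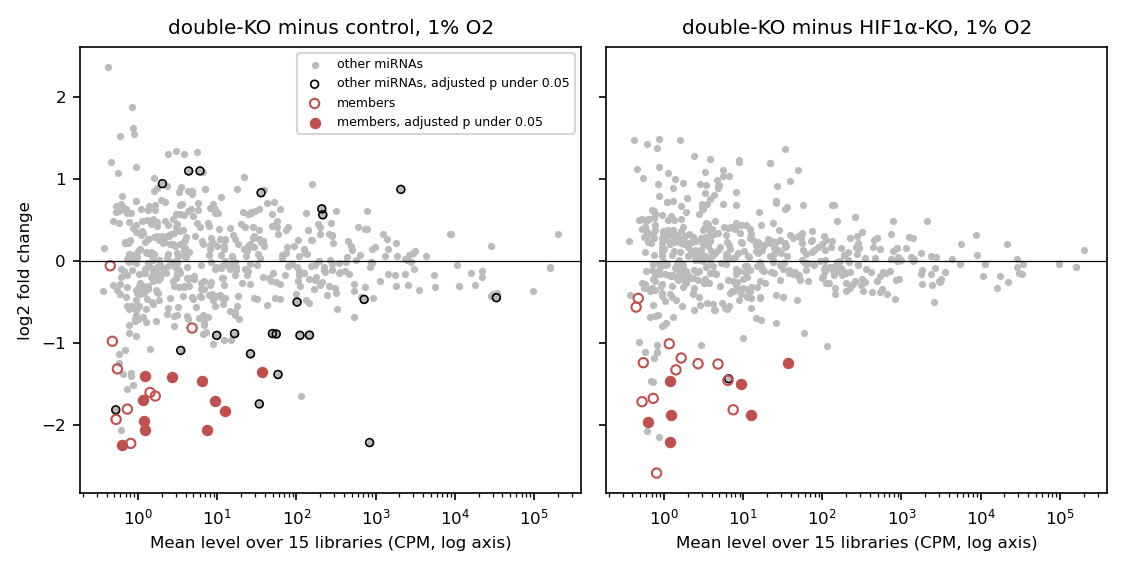
log2 fold change (y axis) against the mean level over 15 libraries (x axis, CPM, log axis) for the 562 miRNAs tested, in HIF1α/HIF2α-KO against hypoxic control cells (left) and against HIF1α-KO cells (right); members are red and filled where the adjusted p was under 0.05 in edgeR, and other called miRNAs are ringed in black. The members lie below 0 in both panels, with 11 called on the left and 7 on the right.

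HIF1α loss was added to HIF2α loss in the comparison of HIF1α/HIF2α-KO with HIF2α-KO cells. Here 0 of the 20 members were called in edgeR, by DESeq2 and by limma, where 1.78% of all miRNAs tested were called in either direction in edgeR. An unadjusted p under 0.05 with a lower level was reached by 13 of the 20 members in edgeR and by 12.6% of all miRNAs tested. Here too, 9 of the 20 reached the filter's cutoff in no double-knockout library. The lowest adjusted p was that of hsa-miR-379-3p (-1.54 ± 0.40 on the log2 scale, adjusted p = 0.0802 in edgeR). The double-knockout libraries lay below the HIF2α-KO libraries for 6 of the 20 members, namely hsa-miR-379-3p, hsa-miR-758-3p, hsa-miR-654-3p, hsa-miR-382-5p, hsa-miR-409-3p and hsa-miR-409-5p, and for 5.52% of all miRNAs tested. hsa-miR-381-3p differed by -0.27 ± 0.26 between these groups, against a median of -1.04 over the 20 tested members and -0.03 over all 562. Without the filter, hsa-miR-329-3p and hsa-miR-409-3p were called lower in the double knockout, where 0.41% of all 1707 miRNAs were. The counts of hsa-miR-329-3p, to which the caution about counting applies, were only 0, 4 and 4 in the double-knockout libraries.

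HIF2α-KO was next compared with hypoxic control cells. Again 0 of 20 members were called in edgeR, DESeq2 or limma, and the share called among all miRNAs tested in edgeR was 0%. A lower level with an unadjusted p under 0.05 was found for 7 of the 20 members in edgeR, against 6.76% of all miRNAs tested. Those 7 were hsa-miR-381-3p (-1.08 ± 0.26, adjusted p = 0.124 in edgeR), hsa-miR-411-3p (-1.08 ± 0.31), hsa-miR-323a-3p (-0.96 ± 0.39), hsa-miR-379-5p (-0.93 ± 0.29), hsa-miR-134-5p (-0.79 ± 0.34), hsa-miR-654-3p (-0.77 ± 0.33) and hsa-miR-382-3p (-0.76 ± 0.30). The HIF2α-KO libraries lay below the hypoxic control libraries for 8 of the 20 members and for 13% of all miRNAs tested. Without the filter on low counts hsa-miR-381-3p was called lower (log2 fold change -1.13 ± 0.26, adjusted p = 0.00497 in edgeR). The median log2 fold change was -0.64 over the 20 tested members and -0.01 over all 562.

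Between HIF2α-KO and HIF1α-KO cells, 0 of 20 members were called in edgeR and limma and 1 by DESeq2, where 1.07% of all miRNAs tested were called in either direction in edgeR. The 1 member was hsa-miR-381-3p, which differed by -0.97 ± 0.26 on the log2 scale in edgeR (adjusted p = 0.0731) and had an adjusted p of 0.0206 in DESeq2. It also passed with total counts in place of TMM factors, without the filter, and without HIF1α-KO replicate 3. An unadjusted p under 0.05 with a lower level in HIF2α-KO cells was reached by 4 of the 20 members in edgeR, hsa-miR-381-3p, hsa-miR-758-3p, hsa-miR-379-5p and hsa-miR-654-3p, and by 7.47% of all miRNAs tested. The HIF2α-KO libraries lay below the HIF1α-KO libraries for 10 of the 20 members and for 15.7% of all miRNAs tested.

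HIF1α-KO and hypoxic control cells showed no called member. In edgeR, DESeq2 and limma 0 of 20 passed, where 1.25% of all miRNAs tested were called in either direction in edgeR, and 2 of the 20 had an unadjusted p under 0.05, against 11.9% of all miRNAs tested. These were hsa-miR-758-3p, at 0.80 ± 0.32 on the log2 scale (adjusted p = 0.310 in edgeR), and hsa-miR-382-3p, at -0.69 ± 0.29 (adjusted p = 0.352 in edgeR). The log2 fold changes of the 20 members ran from -0.69 to 0.80 with a median of -0.17. For hsa-miR-381-3p the difference was -0.11 ± 0.26, and for hsa-miR-654-3p 0.04 ± 0.32.

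The response of control cells to hypoxia was compared in the same way. Between hypoxic and normoxic control cells 0 of 20 members passed in edgeR, DESeq2 or limma, and 0% of all miRNAs tested passed in edgeR. An unadjusted p under 0.05 with a higher level under hypoxia was reached by 5 of the 20 members in edgeR and by 3.2% of all miRNAs tested. Of these, hsa-miR-379-3p had the lowest adjusted p (1.71 ± 0.34 on the log2 scale, adjusted p = 0.115 in edgeR). The others were hsa-miR-758-3p (1.16 ± 0.36), hsa-miR-495-3p (1.15 ± 0.52), hsa-miR-379-5p (0.90 ± 0.29) and hsa-miR-411-3p (0.81 ± 0.30), all from hairpins inside MEG8. Of these 5, hsa-miR-379-3p and hsa-miR-495-3p reached the filter's cutoff in no normoxic control library. They could be tested only through groups in which they were higher, so the count of 5 depends in part on the filter. The same 3 hypoxic control libraries were used in the comparisons with knockout cells. The median log2 fold change was 0.49 over the 20 tested members and 0.01 over all 562.

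Whether HIF1α loss had a different effect with and without HIF2α was tested as an interaction. No member passed, with 0 of 20 called by edgeR, DESeq2 and limma and 0% of all miRNAs called in edgeR. An unadjusted p under 0.05 with a negative estimate was found for 6 of the 20 members in edgeR and for 6.76% of all miRNAs tested, and the lowest was that of hsa-miR-758-3p (-1.99 ± 0.50 on the log2 scale, adjusted p = 0.378 in edgeR). The fall in the double knockout was therefore not shown to differ from the sum of the changes in the single knockouts. The median estimate was -1.02 over the 20 tested members and 0.02 over all 562.

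The neighbours of the members on chromosome 14 were summarised as lists. Of 34 other mature products of hairpins between MIR379 and MIR656, 22 were rows of the count tables and 3 were tested, hsa-miR-543, hsa-miR-1185-1-3p and hsa-miR-1185-2-3p, the last 2 of which are near-identical and may share reads. In HIF1α/HIF2α-KO against hypoxic control cells 0 of the 3 passed in edgeR, DESeq2 or limma. All 3 had a lower level with an unadjusted p under 0.05 in edgeR, as did 13.3% of all miRNAs tested. Their median log2 fold change was -1.41, against -0.02 over all 562. Against HIF1α-KO cells hsa-miR-543 differed by -2.14 ± 0.55 (adjusted p = 0.0703 in edgeR), and 1 of the 3 passed in DESeq2 and in limma. Of 18 products of the upstream group of the same imprinted region, 12 were rows and only hsa-miR-127-3p was tested, which differed by -0.20 ± 0.66 between HIF1α/HIF2α-KO and hypoxic control cells (adjusted p = 0.891 in edgeR). The difference between the cluster and the upstream group was not tested.

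Markers of other cells were examined in the same comparison of HIF1α/HIF2α-KO with hypoxic control cells. Among the tested miRNAs of the lists for glioma cell lines (4), neural cells (2), endothelium (2), blood (3), muscle (2), epithelium (5) and stroma (3), 0 passed in edgeR, 1 epithelial miRNA passed in DESeq2 and in limma, and 1 glioma and 1 epithelial miRNA had an unadjusted p under 0.05 in edgeR. The liver marker miR-122-5p was not analysed here. The summed endothelial markers ran from 6.95 to 17.0 CPM in HIF1α/HIF2α-KO and from 4.40 to 51.9 CPM in hypoxic control cells, and the stromal markers from 213 to 322 and from 130 to 550 CPM. With the miR-126 set as a covariate, 12 members were called lower against the hypoxic control, which included the 11 named above. Against HIF1α-KO cells, 4 were called with this covariate and 7 without it.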

How the data were processed

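For each of 15 libraries the authors deposited a table of counts, whole numbers that were not normalized, with a row for each mature miRNA. The submitters' processing notes name HISAT2, StringTie and DESeq2, and the supplementary methods name limma's quantile normalization. Genome build, counter and treatment of reads with several matches are not given in the sources used here.

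The test was that of edgeR 4.0.16, run in R 4.3.3 (TMM factors, filterByExpr, quasi-likelihood test, 5 group means in 1 fit of 15 libraries, 7 contrasts and 1 interaction, Benjamini-Hochberg over 562 miRNAs). CPM were computed on total counts. Replicates differed beyond sampling noise (chi-square per degree of freedom of at least 49.3). Sequences came from RefSeq and host genes from GENCODE v29, both GRCh38. Members, gene lists and tests were chosen with earlier results of these data known. All members are named, with values per library for those called, the 5 most abundant and the other arms of their hairpins. Alternatives were DESeq2 1.42.0, limma 3.58.1 on quantile-normalized log2(CPM + 1), other scalings and filters, a replicate block, the miR-126 set as a covariate and omission of each library.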

Additional observations from a re-analysis of the deposited data

How the results depend on the processing

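Against the hypoxic control, the number of members called lower in HIF1α/HIF2α-KO cells ranged from 10 to 14 in 9 of 10 alternatives that keep all replicates, and was 6 of 7 tested with at least 10 counts asked for in every library compared, where fewer miRNAs were tested. Leaving out 1 library gave 6 to 11. Against HIF1α-KO cells it was 7 in edgeR and under the settings not named here. It was 11 with DESeq2, 10 without the filter, 8 with limma, 8 with the replicate block and 5 with total counts. It was 4 with the miR-126 covariate, 3 with at least 10 counts in every library, 0 in the fit of the libraries compared and 0 to 7 without 1 library. The members called also changed, since the fit without the filter kept 5 of the 7 and limma and DESeq2 kept 6. The cause of these changes beyond the number of tests was not tested. Of the 0 calls elsewhere, 1 appeared without the filter in HIF2α-KO against hypoxic control, 2 without the filter in HIF1α/HIF2α-KO against HIF2α-KO, where leaving out 1 library gave 0 to 1, and 1 in HIF2α-KO against HIF1α-KO with total counts, with DESeq2 and without the filter, where leaving out 1 library gave 0 to 1. Across the called members and fits no direction reversed. For the 11 called against the hypoxic control, 102 of 105 values under the other settings and 47 of 66 without 1 library stayed past the threshold, and for the 7 called against HIF1α-KO cells 49 of 65 and 17 of 42.

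The summed level in HIF2α-KO cells was 76.1 CPM with TMM-adjusted library sizes. Without hsa-miR-381-3p the sums were 59.3, 80.9, 79.4, 47.4 and 27.6 CPM in normoxic control, hypoxic control, HIF1α-KO, then HIF2α-KO, then double-knockout cells. The replicate numbers did not pair the samples (correlations of same-numbered deviations from -0.62 to 0.55), and the replicate block, with 12 members called against the hypoxic control and 8 against HIF1α-KO cells, is given as a check only. Depth limits the 20 members under the filter.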

Other observations

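Arm use was compared for the 5 hairpins whose named arms were both abundant enough to be tested. For MIR379 the 5p arm made up 93.6% of 785 counts in hypoxic control cells (exact 95% binomial interval 91.7 to 95.2%) and 95.2% of 189 counts in HIF1α/HIF2α-KO cells (91.2 to 97.8%). The share of the 5p arm of MIR411 was 81.9% of 526 counts and 85.5% of 145 counts in these groups. MIR654 and MIR409 gave mostly their 3p arm, with a 5p share of 8.76% and 10.8% for MIR654 and of 7.89% and 9.26% for MIR409. MIR382 gave both arms, with a 5p share of 58.2% and 58.0%. Over all 5 groups the 5p share ran from 92.0 to 96.1% for MIR379, 81.9 to 86.3% for MIR411, 7.51 to 13.2% for MIR654, 7.89 to 13.2% for MIR409 and 52.2 to 66.7% for MIR382. At MIR654 the intervals of normoxic control (13.2%, 10.7 to 15.9%) and HIF1α-KO cells (7.51%, 5.83 to 9.49%) did not overlap. This pair of groups is named because its values were seen. The intervals pool the reads of 3 libraries and leave out the spread between them. Differences in arm use between groups were not tested over replicates. At MIR299, chosen after its values were seen, the 5p arm made up 14.8% of 27 counts in HIF2α-KO cells (exact 95% binomial interval 4.19 to 33.7%) and 46.2% of 65 counts in hypoxic control cells (33.7 to 59.0%). It made up 53.8% of 13 counts in HIF1α/HIF2α-KO cells (25.1 to 80.8%), 45.7% of 46 counts in HIF1α-KO cells and 48.4% of 31 counts in normoxic control cells. No test was made of these differences, and single libraries held few of these counts.

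Within groups, the abundant members varied together. The 7 members with at least 10 counts in every library gave 21 pairs, and the correlation of their deviations from the group means over the 15 libraries (log2 CPM with a pseudocount of 0.5) had a median of 0.61, from 0.10 to 0.83. Over the 81810 pairs of the 405 miRNAs with such counts the median was 0.0038, from -0.96 to 1.00. The points share libraries and normalization, and the members share a locus, so this is a description without a test.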
